A study of Mus musculus with 4 samples.

Results

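The replication-dependent histone genes were followed in CD8+ T cells sorted from B16F10 melanoma tumours of C57BL/6J mice aged 6 to 8 weeks. These genes were taken by name, as every symbol of the clusters Hist1 to Hist4 in the feature list with at least 10 unique molecular identifiers (UMIs, each standing for 1 captured RNA molecule) summed over the 4 matrices. Of 67 such symbols, 61 reached that number, out of 32285 features in all. The members just inside were Hist2h3c2 with 11 UMIs and Hist1h2ah with 15, and the symbols just outside were Hist2h2aa2 with 9 and Hist1h2br with 8. The other 4 symbols left out were Hist1h2aa with 5 UMIs, the testis linker gene Hist1h1t with 3, and Hist1h2ba and Hist1h2bq with 0, which allows up to 3.

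There were 2 groups of 2 samples, named for a guide RNA: sgScr, by its name the control, and sgArid1a, directed at Arid1a, whose protein is part of the SWI/SNF remodellers of chromatin. The labels give both groups the same strain, tumour line, age and sort (live CD45+ CD3+ CD8+ cells). They leave unstated how many mice a sample came from, which cells carried the guide and whether every such cell held it. The p-values below therefore measure the spread between these samples only. The Arid1a level of the T cells was 84.7 and 93.7 CPM (UMIs per 1000000 UMIs of the same cells) in sgScr and 73.9 and 72.6 CPM in sgArid1a. The transcript was thus present in every sample.

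Histones package DNA: H2A, H2B, H3 and H4 form the nucleosome core, and linker H1 binds where DNA enters and leaves it. The replication-dependent genes lie in clusters, lack introns as a rule, and are known for a burst of messenger RNA while DNA is copied, when new chromatin has to be filled. Their messages are unusual in ending at a stem-loop, bound by the protein Slbp, rather than in a poly(A) tail, and a library of polyadenylated RNA, as the labels name this one, holds only that part of them that carries a tail or is captured otherwise. The levels below are levels in these libraries and not totals of histone message. Molecules were counted from the 5-prime end, so a count does not grow with the length of a transcript.

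After filtering, 37938 T cells remained (7593, 7097, 10593 and 12655 in sgScr replicates 1 and 2 and sgArid1a replicates 1 and 2, the order kept below). They held 35328115, 31839462, 38598249 and 79489940 UMIs. Sums of B cell, plasma cell, dendritic cell and macrophage genes were 44.1 to 78.0 CPM per sample over 19 genes, with S100a8, S100a9 and Siglech among those at 0, against 5348 to 5905 CPM for 8 T cell genes. Genes of both lists were used to choose the cells, so these sums cannot serve as a separate check of purity. Melanoma genes summed to at most 0.918 CPM over 6 genes. Cells with 2 or more Trbv segments, which include doublets, made up 11.2, 10.6, 6.75 and 13.1% of the T cells. Pairs of libraries shared 78 to 231 barcodes.

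The members divide into 5 linker H1, 16 H2A, 15 H2B, 12 H3 and 13 H4 genes, with 193275 UMIs in all barcodes. Linker genes gave 47.4% of these UMIs, H2A 21.9%, H4 12.7%, H2B 10.0% and H3 7.96%. The counts were concentrated in a few genes: Hist1h1e (38520 UMIs), Hist1h1b (31982), Hist1h2ae (22059) and Hist1h4d (14863) made up 55.6%, and the first 20 members 89.7%. At least 1000 UMIs were found for 27 members and at least 100 for 51.

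In the GENCODE M21 annotation of GRCm38, 49 members belong to Hist1 on chromosome 13, in a stretch from 21715763 to 22043676 with 21 members and another from 23531050 to 23764406 with 28. The second stretch held 126306 UMIs and the first 52381. Hist2 has 9 members on chromosome 3 between 96219865 and 96270132, Hist3 has 2 on chromosome 11 between 58948920 and 58956830, and Hist4h4 lies alone on chromosome 6 between 136801553 and 136804415. Core histone genes are near-copies of each other: in 24 of 61 members at least 50% of the 90-base stretches of the transcript also occur in another gene, and these 24 gave 11.7% of the UMIs. Values for such genes, among them Hist1h2ap (92.4% of its stretches), Hist1h2ag, Hist1h2af, Hist1h3b, Hist1h2bk, Hist1h2bn, Hist1h2ab and Hist1h3e, are uncertain as to which copy was read. Hist1h2be overlaps Hist1h1e on the same strand, and 26.2% of the stretches of Hist1h1e are shared.

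The stem-loop is the feature that defines the family's messages, so its sequence is shown for members that represent the types and the range of responses below. A script searched the annotated transcript for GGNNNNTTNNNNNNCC with a perfect stem of 6 base pairs. It was found in 42 of 61 members (68.9%), against 86 of 21834 other protein-coding genes (0.394%). In the following sites, read 5′ to 3′ from the annotated transcript, capitals mark the 16 bases of stem and loop.
Hist1h1e: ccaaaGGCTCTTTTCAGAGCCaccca
Hist1h1c: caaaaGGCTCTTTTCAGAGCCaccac
Hist1h2ae: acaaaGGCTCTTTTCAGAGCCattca
Hist1h2bj: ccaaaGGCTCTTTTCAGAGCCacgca
Hist3h2ba: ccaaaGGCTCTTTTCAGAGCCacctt
Hist1h3e: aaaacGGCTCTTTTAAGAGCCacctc
Hist1h4d: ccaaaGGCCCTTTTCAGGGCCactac
Hist4h4: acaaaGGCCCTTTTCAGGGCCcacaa

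The sites fall into families by stem. The form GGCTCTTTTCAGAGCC was found in 25 members of the H2A, H2B, H3 and linker types. All 11 H4 members with a site had another stem, beginning GGCCCT in 9 and GGTCCT in 2. In the other 19 members, Hist1h1a and Hist1h1b among them, these letters with a perfect stem were not found in the annotated transcript; an imperfect stem, or one past the annotated end, would be missed. The annotated transcript runs on for 1153 bases past the site in Hist1h1e, 840 in Hist1h1c, 770 in Hist1h4d, 369 in Hist1h3e, 169 in Hist3h2ba, 151 in Hist1h2ae and 2445 in Hist4h4, but for only 23 in Hist1h2bj.

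Promoters were read for 56 of the 61 members from the RefSeq table of GRCm38.p6, over 250 bases before and 50 after the start. The motif CCAAT, sought on both strands, was present in all 5 linker promoters, all 16 of H2A, all 13 of H2B and all 10 of H3, but in 3 of 12 of H4, against 37.4% of 32851 promoters of the same length. TATAAA was present in 33 of 56 (13.6% of all promoters). The octamer ATTTGCAT was present in 6 of 16 H2A and 6 of 13 H2B promoters and in none of the others (1.74% of all promoters). AAACACA, found in 4 of 5 linker promoters, 1 of H2A and 1 of H2B, occurs in 7.18% of all promoters. The search allowed the motifs to overlap each other. In 7 pairs of an H2A and an H2B gene the windows overlap on opposite strands. A site in such an overlap counts for both genes, so these H2A and H2B counts are not separate.

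Of the promoters, 3 are shown for contrasts in the results. Among linker genes, Hist1h1b rose most in S phase over resting cells, and Hist1h1c was the only one called lower, by a small amount. Hist1h2ae shares its promoter region with the far lower Hist1h2bg. Each run covers the 250 bases before the annotated start, 5′ to 3′ on the gene's strand, with the motifs above in capitals on either strand. Hist1h1b (H1f5 in RefSeq) lies at chr13:21780626-21780875 on the minus strand, Hist1h1c (H1f2) at chr13:23738557-23738806 on the plus strand and Hist1h2ae (H2ac8) at chr13:23571221-23571470 on the minus strand.
Hist1h1b: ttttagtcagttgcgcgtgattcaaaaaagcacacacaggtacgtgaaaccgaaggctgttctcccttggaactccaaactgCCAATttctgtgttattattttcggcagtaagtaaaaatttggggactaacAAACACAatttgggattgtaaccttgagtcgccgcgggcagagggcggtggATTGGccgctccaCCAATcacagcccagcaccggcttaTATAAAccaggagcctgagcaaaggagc
Hist1h1c: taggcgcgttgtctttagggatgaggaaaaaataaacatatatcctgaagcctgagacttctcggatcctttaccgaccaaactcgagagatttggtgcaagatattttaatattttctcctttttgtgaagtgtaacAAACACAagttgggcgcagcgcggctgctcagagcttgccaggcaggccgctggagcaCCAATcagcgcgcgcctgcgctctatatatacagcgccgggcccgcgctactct
Hist1h2ae: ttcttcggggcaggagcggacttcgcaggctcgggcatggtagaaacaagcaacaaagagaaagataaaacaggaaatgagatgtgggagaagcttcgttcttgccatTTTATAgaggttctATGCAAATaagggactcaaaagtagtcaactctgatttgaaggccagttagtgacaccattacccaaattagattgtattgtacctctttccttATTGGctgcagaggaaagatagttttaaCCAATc

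Both linker promoters carry AAACACA followed by CCAAT nearer to the start. TATAAA stands in that of Hist1h1b and not in that of Hist1h1c. The Hist1h1c run reads tatatata between CCAAT and the start, which a search for the exact letters TATAAA does not count. In the Hist1h2ae run the TATAAA and ATTTGCAT motifs are written on the opposite strand.

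Cells were placed in the cell cycle by genes other than histones. Each cell with at least 1500 UMIs was thinned to 1500 UMIs, and UMIs were summed over 26 S phase genes (replication factors such as Mcm2 to Mcm7 and Pcna) and 24 mitotic genes (such as Ccnb1, Plk1 and Aurkb). S phase cells had at least 4 S phase UMIs and at most 1 mitotic UMI, mitotic cells the reverse, S and mitotic cells at least 4 of each, and resting cells 0 of both, with the remainder intermediate. Of 35517 cells, 1398 were S phase, 678 S and mitotic, 400 mitotic, 15295 resting and 17746 intermediate. The cut lies in a range and not between types: among cells with at most 1 UMI of the other list, 1618 had 3 or 4 S phase UMIs and 147 had 3 or 4 mitotic UMIs. Over all cells, 1002 had 2 to 3 mitotic UMIs and 510 had 4 to 5, so that many more lie near the limit of the S and mitotic class.

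Summed over the members, the histone level was lowest in resting cells and highest in cells with both lists. It was 343, 355, 331 and 338 CPM in resting cells and 1557, 1310, 1524 and 1205 CPM in S phase cells. Mitotic cells held 2367, 2083, 2065 and 2320 CPM, and S and mitotic cells 5021, 6681, 4735 and 3466 CPM. No sample of one of these classes overlapped a sample of another. Against resting cells of the same sample the sum was 3.56 to 4.60 times as high in S phase cells, 5.87 to 6.89 times in mitotic cells and 10.2 to 18.8 times in S and mitotic cells. Median UMIs per cell were 2431 to 3787 in resting cells, 7839 to 12197 in S phase cells and 9629 to 17752 in S and mitotic cells. Two-segment cells were 7.86 to 11.2% of resting, 13 to 22.1% of S phase, 11.1 to 24.3% of S and mitotic cells, and 37.5, 24, 17.1 and 23.3% of mitotic cells. The part of depth and doublets in these levels was not tested beyond the alternatives given under the dependence on processing.

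**Figure D1:**
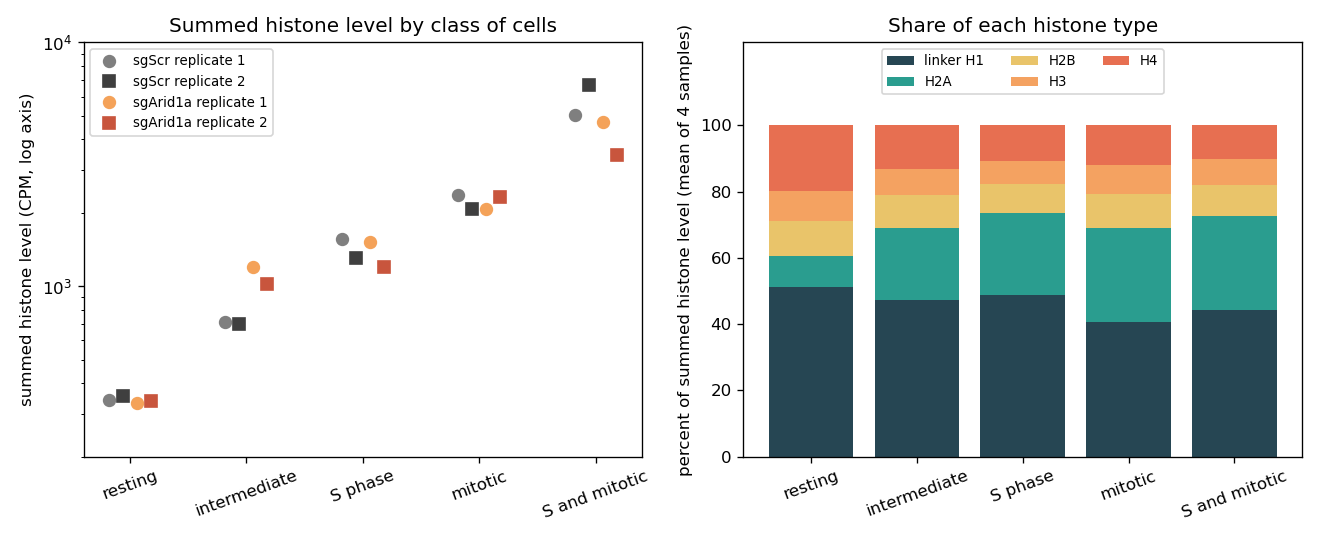
Left, summed level of the 61 histone genes in CPM (log axis) in each class of cells, 1 point per sample; right, percent of that sum by histone type, as the mean of 4 samples in each class. The sum runs from 331 to 355 CPM in resting cells to 3466 to 6681 CPM in S and mitotic cells, and the H2A share is larger in each of the S phase, mitotic and S and mitotic classes than in resting cells.

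The makeup of the histone signal also differed by class. In resting cells linker genes made up 50.6 to 52.2% of the histone level and H4 19.1 to 20.7%, while H2A made up 8.68 to 10.6%. In S and mitotic cells H2A made up 24.5 to 32.5%, linker genes 41.8 to 46.3% and H4 9.09 to 11.2%. The summed H2A level was 31.8 ± 2.51 CPM (SD, n = 4) in resting cells and 1442 ± 550 CPM (SD, n = 4) in S and mitotic cells, a ratio within samples of 28.3 to 67.2. For H4 the ratio was 5.65 to 8.96. The H2A values of these classes did not overlap in either quantity.

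At 1500 UMIs per cell, 87.1, 98.6, 95.5 and 92.1% of S and mitotic cells had a histone UMI (Wilson 95% intervals 76.6 to 93.3, 92.3 to 99.7, 92.1 to 97.5 and 88.5 to 94.6%). Of S phase cells 53.3 to 59.5% had one, and of resting cells 39.5 to 41.3%. Without thinning the shares were 99.2 to 100% in S and mitotic cells, 86.3 to 90.8% in S phase cells and 56.0 to 69.2% in resting cells. The intervals cover counting error only. RNA free in the droplets can put a UMI in any cell, and the share in resting cells is the level against which the other classes are to be read.

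Over cells of all classes, the level was higher in cells with many UMIs of either list than in cells with 0. With at most 1 mitotic UMI, cells with 0 S phase UMIs had a mean of 0.540 to 0.603 histone UMIs of 1500, cells with 4 to 5 had 0.644 to 1.56, and cells with 10 or more had 2.17 to 3.75. Among cells with at least 4 S phase UMIs, the mean was 1.05 to 1.46 where no mitotic UMI was found, 3.74 to 5.58 with 2 to 3 and 6.10 to 10.5 with 6 to 9. Among cells with at most 1 S phase UMI, it was 1.89 to 4.08 with 6 to 9 mitotic UMIs. Some of these bins hold few cells: 7 and 12 sgScr cells with 10 or more S phase UMIs, and 7 and 18 sgScr cells with 6 to 9 mitotic and at most 1 S phase UMI. These are values per cell and are given as a description, since cells of a sample are not replicates.

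**Figure D2:**
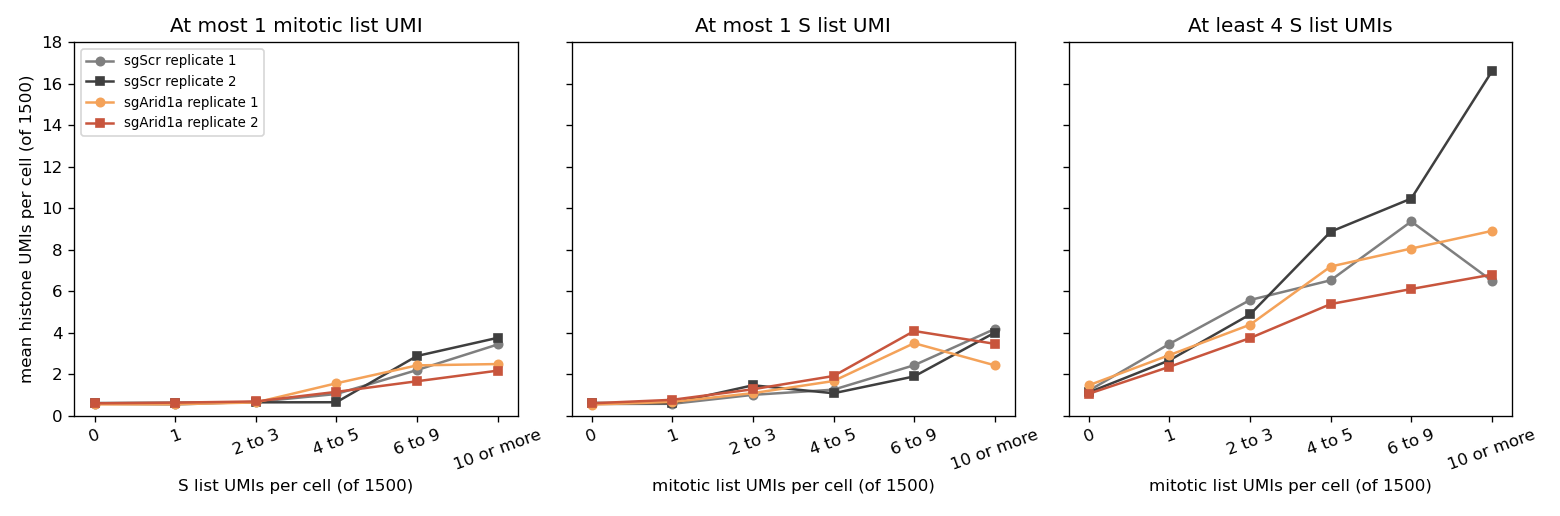
Mean histone UMIs per cell thinned to 1500 UMIs (vertical axis) against UMIs of the S phase list (left) or of the mitotic list (middle and right), 1 line per sample; the panel titles give the limit set on the other list. In cells with at least 4 S phase UMIs the mean goes from 1.05 to 1.46 with no mitotic UMI to 6.10 to 10.5 with 6 to 9.

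Gene by gene, S phase and resting sums were compared with edgeR's quasi-likelihood test with the sample as a block and Benjamini-Hochberg adjustment over all genes. Of the 61 members 38 passed the filter on low counts, which tends to keep a low gene through the class where it is high. Of these, 32 rose, 3 fell and 3 did not pass, at an adjusted p under 0.05, where 33.6% of all 10952 genes tested rose and 33.9% fell. The members' median log2 fold change was 1.80, against -0.03 over all genes. By type, 4 of 5 linker, 8 of 8 H2A, 10 of 12 H2B, 7 of 7 H3 and 3 of 6 H4 genes tested rose.

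Among linker genes, Hist1h1b rose from 4.48, 7.63, 14.6 and 13.3 CPM in resting cells to 340, 273, 364 and 262 CPM in S phase cells. Every S phase value was above every resting value, with a log2 fold change of 4.80 ± 0.20 (SE) and an edgeR adjusted p of 3.9e-10. It is the member with the most UMIs among cells of the S phase class. Hist1h1e, the most abundant member in resting cells, rose from 102, 101, 98.0 and 95.5 CPM to 274, 217, 263 and 227 CPM (log2 1.16 ± 0.07). Hist1h1a rose by a log2 of 2.73 ± 0.13 and Hist1h1d by 1.80 ± 0.10.

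Hist1h1c went the other way. Its level was 53.5, 50.8, 37.4 and 46.1 CPM in resting cells and 51.8, 34.5, 37.5 and 34.2 CPM in S phase cells, so that the classes overlap. Within samples it was lower in 3 of 4, and the blocked test gave -0.40 ± 0.09 (SE) with an edgeR adjusted p of 0.0024, which is 0.389 when cells are classed at 1000 UMIs. In resting cells it stood second among members, with a mean of 46.9 CPM after Hist1h1e with 99.1. The level order in S phase cells was instead Hist1h1b (310), Hist1h1e (245), Hist1h2ae (202), Hist1h4d (98.1), Hist1h1d (55.5) and Hist1h3e (48.3).

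Of the core genes, Hist1h2ae gave the highest S phase level. It was 6.88, 7.39, 9 and 7.25 CPM in resting cells and 242, 212, 223 and 129 CPM in S phase cells, with no overlap and a log2 fold change of 4.51 ± 0.12 (SE, edgeR adjusted p = 7.01e-12). Hist1h2ap rose by 4.14 ± 0.18, Hist1h2af by 4.22 ± 0.34, Hist1h2ab by 3.54 ± 0.28 and Hist2h2ac, a Hist2 gene for H2A, by 1.79 ± 0.13 on the log2 scale. Of the H2B genes, Hist1h2bj rose by 3.48 ± 0.14, from a mean of 3.32 to 41.0 CPM, Hist1h2bm by 2.90 ± 0.23, Hist1h2bn by 2.14 ± 0.27 and Hist2h2bb by 1.28 ± 0.16. Hist1h3c, an H3 gene, rose by 3.17 ± 0.42 and Hist1h3e by 1.20 ± 0.09. Hist1h4d, the leading H4 gene, rose by 1.40 ± 0.07, from 33.1 to 98.1 CPM.

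Very low resting counts lie behind some of the steepest rises. Hist1h3b had 33 UMIs in S phase and 3 in resting cells, a ratio of 40.9 per UMI sequenced (exact 95% interval 12.8 to 208, counting error only). For Hist1h2bk the numbers were 37 and 4, a ratio of 34.4 (12.4 to 133). Both were at 0 in the resting cells of the sgScr samples.

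The genes that fell beside Hist1h1c were Hist3h2ba and Hist4h4, which lie outside the large clusters. Hist3h2ba, for H2B, was at 11.5, 13.9, 8.90 and 13.3 CPM in resting and 8.64, 7.91, 5.50 and 6.29 CPM in S phase cells, without overlap (log2 -0.98 ± 0.16, edgeR adjusted p = 9.89e-05). Hist4h4, for H4, was at 9.89, 10.0, 7.82 and 8.24 CPM against 5.98, 4.32, 3.59 and 5.17 CPM, also without overlap (log2 -0.99 ± 0.18, edgeR adjusted p = 0.000353). Hist2h4, Hist1h4c and Hist2h2be, named after their values were seen as the 3 that did not pass, had log2 values of -0.33, -0.02 and -0.40. These 6 genes are, by the way they were picked, the members tested that were not called higher in S phase cells.

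**Figure D3:**
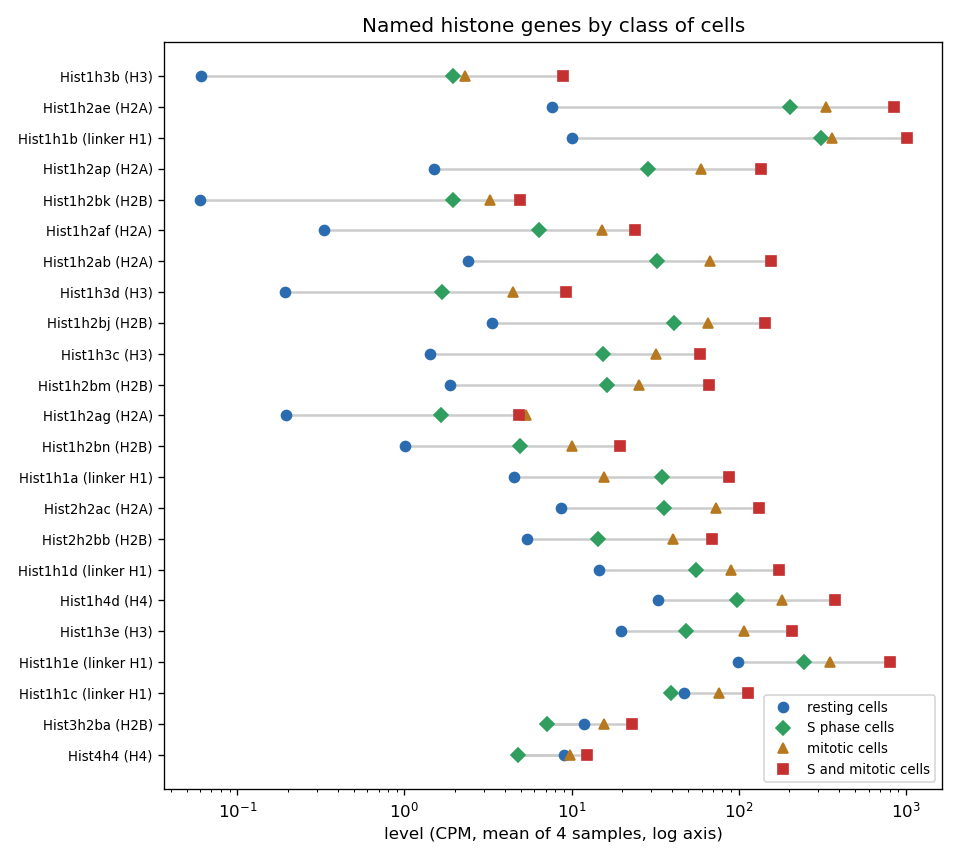
Level of each named histone gene in CPM (horizontal log axis, mean of 4 samples) in resting, S phase, mitotic and S and mitotic cells; genes are ordered by the ratio of S and mitotic to resting level. Hist1h3b, Hist1h2ae and Hist1h1b have the widest spans, and Hist1h1c, Hist3h2ba and Hist4h4, at the bottom, have S phase values below their resting values.

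Members were also grouped by the end of their annotated transcript. The 21 members with a stem-loop and 100 or more bases annotated after it held 82.3% of the resting histone level and 56.5% of the S and mitotic level. The 21 members with fewer than 100 such bases held 8.39 and 16.4%, and the 19 without a site in the annotation 9.28 and 27.2%. Over members of at least 5 CPM in S and mitotic cells, the ratio of S and mitotic to resting level had a median of 9.48 in 18 members of the long-ended set, from 1.38 to 111, of 35.3 in 11 of the short-ended set, from 5.15 to 147, and of 20.7 in 11 without a site, from 3.88 to 101. The sets overlap widely, and the limits of 100 bases and 5 CPM were chosen after the values were seen, so no test is given.

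The mitotic class had a higher histone level in CPM than the S phase class. By its definition the S phase class leaves out cells with more than 1 mitotic UMI. In cells with at least 4 S phase UMIs, mean histone UMIs per thinned cell were 1.1 to 1.5 with no mitotic UMI. With 2 to 3 mitotic UMIs they were 3.7 to 5.6. Whether the class difference holds between S phase and mitosis as such was not tested. Against resting cells 33 of 39 members tested rose in mitotic cells and none fell, at a median log2 of 2.81. Of all genes 26.7% rose and 26.2% fell. The filter on low counts again tends to keep a low gene through the class where it is high, so the members' counts lean towards rises. The largest rises were Hist1h2af (log2 5.38 ± 0.40), Hist1h2ae (5.25 ± 0.12) and Hist1h2ap (5.12 ± 0.24). Hist3h2ba (0.27 ± 0.21) and Hist4h4 (0.06 ± 0.24) did not pass, with edgeR adjusted p of 0.291 and 0.85.

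Set directly against mitotic cells, S phase cells were lower in 26 of 30 members and higher in 1. Of all genes 15.8% were lower and 15.8% higher. The filter on low counts has the same limit here. The single gene higher in S phase cells was the linker gene Hist1h1a, at 35.9, 30.9, 41.1 and 30.9 CPM against 9.62, 15.95, 20.7 and 15.9 CPM in mitotic cells. These ranges did not overlap (log2 1.04 ± 0.17, edgeR adjusted p = 7.8e-06). Among those lower, Hist2h2bb differed most, at -1.41 ± 0.17, followed by Hist3h2ba at -1.31 ± 0.23 and Hist1h2bn at -1.25 ± 0.28. Without two-segment cells 17 members were called lower, for which the share of all genes is not given. Without sgArid1a replicate 2, 16 members were called lower, and Hist1h1b went from -0.30 to 0.01 with an edgeR adjusted p of 0.963.

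Cells with both lists had the highest level of most members, and their comparisons were added after the levels by class had been seen. Against resting cells 45 of 47 members tested rose and none fell (median log2 3.56), where 31% of all genes rose and 33.2% fell. The filter on low counts tends to keep a low gene through the class where it is high, so these counts lean towards rises. Hist1h3b rose from 3 to 92 UMIs, a ratio of 173 (exact 95% interval 57.3 to 853), Hist1h2ae by a log2 of 6.51 ± 0.18 and Hist1h1b by 6.48 ± 0.25. Hist1h2ae reached 891, 1295, 745 and 454 CPM and Hist1h1b 987, 1262, 1088 and 710 CPM. Against S phase cells 38 of 39 members rose, at a median log2 of 1.75, where 11.7% of all genes rose and 11.3% fell. The filter has the same limit in this comparison. The largest of these rises were Hist1h3d (2.11 ± 0.30), Hist1h2ab (2.10 ± 0.10) and Hist2h2bb (2.09 ± 0.12). Hist1h1c, flat to lower in S phase cells, rose here too, by 1.08 ± 0.09 over resting and 1.47 ± 0.09 over S phase cells. Hist4h4 was again at the end of the order, at 0.24 ± 0.17 over resting cells (edgeR adjusted p = 0.223).

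Genes for H2A and H2B often lie head to head with their promoters between them. In 7 pairs of members the promoter windows overlapped on opposite strands, and all 7 were an H2A with an H2B gene. Their levels were unequal. In S and mitotic cells the higher member stood 2.38 to 57.6 times above the lower, with a median of 6.30. The widest gap was Hist1h2ae at 846 CPM against Hist1h2bg at 14.7 CPM, whose windows overlap by 279 bases and include the promoter printed above for Hist1h2ae. In the pair of Hist1h2bj (143 CPM) and Hist1h2ag (4.82 CPM) the H2B gene was instead the higher. Near-identical copies make the lower values of such pairs the less certain, as given above for the shared stretches.

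The genes that make, trim and load histones were taken from lists of other genes. Of 15 tested genes of histone transcription and 3-prime processing, 12 rose in S phase cells over resting cells and none fell, at a median log2 of 0.59, where 33.6% of all genes rose and 33.9% fell. Slbp, the protein bound to the stem-loop, went from 69.4, 70.6, 74.6 and 84.5 CPM to 217, 219, 226 and 246 CPM (log2 1.46 ± 0.05, edgeR adjusted p = 1.59e-10). The ranges are far apart. Cpsf2, of the complex that cleaves histone messages, rose by 1.24 ± 0.07, Nelfe, of the elongation factor NELF, by 1.54 ± 0.08, Ncbp2, of the cap-binding complex, by 1.33 ± 0.11, and Npat, the coactivator of histone transcription, by 0.56 ± 0.11.

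Slbp did not follow the histone level from class to class. Its mean was 227 CPM in S phase cells, 242 in S and mitotic cells and 101 in mitotic cells. Mitotic cells were thus below S phase cells (log2 of S phase over mitotic 1.14 ± 0.08, edgeR adjusted p = 1.79e-13), while 26 histone members were above them. Between S and mitotic and S phase cells Slbp differed by 0.04 ± 0.06 (edgeR adjusted p = 0.674), against the median of 1.75 for the members.

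Of 19 histone chaperones, 13 rose in S phase over resting cells and 3 fell (Cabin1, Daxx and Ubn1, at -0.31, -0.83 and -0.48). Hira, which acts in a complex with Cabin1 and Ubn1, rose by 0.75 ± 0.13 (edgeR adjusted p = 0.000178) and was named after its value was seen. Asf1b, a chaperone of H3 and H4, rose by 3.78 ± 0.08, Chaf1a, of the assembly factor CAF-1, by 3.96 ± 0.13 and Nap1l1, a chaperone of H2A and H2B, by 1.77 ± 0.05. Of 10 replication-independent variants, 7 rose and H2afj fell by 0.19 on the log2 scale. H2afz rose by 1.34 ± 0.04, the centromere variant Cenpa by 1.58 ± 0.08 and H2afx by 0.91 ± 0.07. H3f3b (0.07 ± 0.04, edgeR adjusted p = 0.199) did not pass, and H1f0, the linker of non-dividing cells, rose by 0.39 ± 0.11 (edgeR adjusted p = 0.00742). H2afx then stood 2.54 ± 0.07 lower in S phase than in mitotic cells on the log2 scale, and Cenpa 2.84 ± 0.08 lower.

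Between groups, the histone level over all T cells was higher in sgArid1a. The sum was 757 and 816 CPM in sgScr and 1244 and 1073 CPM in sgArid1a, that is 787 ± 41.3 (SD, n = 2) against 1158 ± 121 (SD, n = 2), a ratio of 1.47 without overlap. Of 54 members tested 32 were called higher and none lower by edgeR, where 28% of all 12763 genes were called higher and 26.5% lower. The members' median log2 fold change was 0.54, against -0.01 over all genes. The calls took in 4 of 5 linker, 7 of 13 H2A, 10 of 15 H2B, 7 of 9 H3 and 4 of 12 H4 genes. On cells thinned to 1500 UMIs 17 of 40 members were called higher. The share of all genes called on thinned cells is not given. The summed genes of B cells, plasma cells, dendritic cells and macrophages also differed by group, at 44.1 and 46.8 CPM in sgScr against 78.0 and 75.5 CPM in sgArid1a, and their part in the histone difference was not tested.

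Hist1h1b was at 97.0 and 103 CPM in sgScr and 236 and 187 CPM in sgArid1a (log2 1.11 ± 0.10, edgeR adjusted p = 2.2e-07). Hist1h1e was at 159 and 169 against 236 and 213 CPM (0.48 ± 0.07, edgeR adjusted p = 4.38e-05), and Hist1h1a at 11.2 and 12.9 against 23.3 and 20.3 CPM (0.88 ± 0.10). None of these overlapped. Hist1h1c was at 56.1 and 58.1 against 50.5 and 53.4 CPM and was not called (-0.11 ± 0.06, edgeR adjusted p = 0.139). The steepest rises were Hist1h2bk (2.12 ± 0.37), Hist1h2ag (1.62 ± 0.38) and Hist1h2af (1.53 ± 0.22), all at 8.50 CPM or less in every sample. Hist1h2ag lost its call in 2 of 10 alternatives. Of the other genes of Hist1 with high levels, Hist1h2bj rose by 1.0 ± 0.12, Hist1h2ap by 0.91 ± 0.12, Hist1h2ae by 0.58 ± 0.14, Hist1h4d by 0.49 ± 0.10 and Hist1h3e by 0.48 ± 0.09. Hist2h2ac (0.26 ± 0.11, edgeR adjusted p = 0.0603), Hist3h2ba (-0.10 ± 0.08) and Hist4h4 (-0.12 ± 0.10) did not pass.

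The groups differed at the same time in how many T cells were cycling. S and mitotic cells were 0.835% (Wilson 95% interval 0.652 to 1.07) and 1.02% (0.805 to 1.28) of the cells in sgScr and 2.74% (2.42 to 3.10) and 2.46% (2.20 to 2.74) in sgArid1a. S phase cells were 1.83 ± 0.10% against 5.36 ± 0.03%, mitotic cells 0.579 ± 0.21% against 1.52 ± 0.18% and resting cells 47.4 ± 1.15% against 40.2 ± 0.89% (SD, n = 2 each). None of these ranges overlapped. The exact two-sided permutation test gave p = 0.333 for each, the smallest p that 2 against 2 samples allow. Without thinning the differences of the group means were -0.87 percentage points for S phase cells and 3.65 for resting cells. The samples of sgArid1a then lay on both sides of sgScr: S phase cells were 10.9 and 11.6% in sgScr against 6.99 and 13.8% in sgArid1a, and resting cells 19.3 and 19.9% against 30.7 and 15.8%. Unthinned S and mitotic cells, at 3.79 and 4.02% against 10.9 and 12.7%, were higher in both sgArid1a samples. Shares are of cells with at least 1500 UMIs, which leaves out 16.3% of the T cells of sgArid1a replicate 1 against 2.27, 2.94 and 2.47% in sgScr replicates 1 and 2 and sgArid1a replicate 2.

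The classes also gave different parts of the histone UMIs. S and mitotic cells held 3.38, 3.38, 7.32 and 7.11% of the UMIs of classed cells and 22.4, 27.7, 27.1 and 23.0% of the histone UMIs. Intermediate cells gave 45.8, 42.6, 46.5 and 48.5% of the histone UMIs. Their histone level was 716 and 702 CPM in sgScr and 1198 and 1017 CPM in sgArid1a, and their mean mitotic list UMIs 0.285 and 0.267 against 0.692 and 0.606 per cell. In a sum over all T cells alone, more cells of a kind and more RNA in each cannot be told apart. Levels within classes are given below.

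In S phase cells the summed level was 1434 ± 174 against 1364 ± 225 CPM and in mitotic cells 2225 ± 201 against 2192 ± 181 CPM (SD, n = 2 each), with overlap in both. Among 34 members tested in S phase cells none was called higher and 2 were called lower by edgeR, Hist2h2ac (-0.74 ± 0.19, adjusted p = 0.0102) and Hist1h3c (-0.88 ± 0.26, adjusted p = 0.035), where 2.67% of all genes were called higher and 2.36% lower. At an unadjusted p under 0.05 there were 7, for which the share of all genes at that limit is not given, and DESeq2 called none lower. Both calls were also absent without sgScr replicate 1, without sgArid1a replicate 2 and without two-segment cells, and leaving out sgArid1a replicate 1 gave 4. In mitotic cells edgeR called 0 of 29 members in either direction, where 0.496% of all genes were called higher and 0.386% lower. At an unadjusted p under 0.05 there were 5 members, again without the share of all genes. The alternatives gave 0 to 2 calls in a direction. The mitotic class holds 32 and 50 cells in sgScr, so that its depth sets a limit on what could be seen.

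In resting cells the sums were 349 ± 8.34 and 335 ± 5.18 CPM (SD, n = 2 each). Of 34 members tested 2 were called higher and 2 lower by edgeR, where 15.6% of all genes were called higher and 12.4% lower. Hist1h1b was higher in sgArid1a (4.48 and 7.63 against 14.6 and 13.3 CPM, log2 1.25 ± 0.18, edgeR adjusted p = 0.00017), and Hist1h2bm likewise (0.94 and 1.48 against 2.64 and 2.48 CPM, 1.13 ± 0.30, edgeR adjusted p = 0.012). Hist1h1d (-0.34 ± 0.11) and Hist1h1c (-0.26 ± 0.08) were lower, with edgeR adjusted p of 0.0325 and 0.0338. In these cells Mki67, a proliferation marker, was at 3.27 and 5.14 against 7.92 and 7.25 CPM (0.89 ± 0.20, edgeR adjusted p = 0.00397). The summed mitotic list was 31.8 and 33.2 CPM against 32.5 and 46.4 CPM. Their part in the Hist1h1b difference was not tested. The lower calls are lost with DESeq2 and without sgScr replicate 2. Without sgScr replicate 1, 1 member was called in each direction, and without either sgArid1a sample 5 were called higher; without sgArid1a replicate 2, 1 was called lower.

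In S and mitotic cells, a comparison added after the levels had been seen, the sum was 5851 ± 1174 CPM in sgScr and 4100 ± 897 CPM in sgArid1a (SD, n = 2 each), a ratio of 0.701 without overlap. Of 42 members tested none was called higher and 7 were called lower by edgeR, where 1.82% of all genes were called higher and 1.34% lower. The median log2 over the members was -0.39, against -0.02 over all genes. Hist1h2ab was at 148 and 262 against 145 and 69.8 CPM (-0.92 ± 0.19, edgeR adjusted p = 0.000885), Hist1h2ae at 891 and 1295 against 745 and 454 CPM (-0.81 ± 0.15, edgeR adjusted p = 0.000156) and Hist2h2ac at 141 and 197 against 122 and 73.2 CPM (-0.77 ± 0.16, edgeR adjusted p = 0.00182). In each the lower sgScr value and the higher sgArid1a value are close, and the sgScr replicate 2 and sgArid1a replicate 2 values lie far out. The other 4 were Hist1h3c, Hist1h1d, Hist1h2ap and Hist1h4d, at -0.71, -0.64, -0.58 and -0.50. The calls rest on single samples: without sgArid1a replicate 2 there were 0, without sgScr replicate 2 there were 3 and without sgScr replicate 1 there were 15, and DESeq2 gave 0. At an unadjusted p under 0.05 there were 19 members, for which the share of all genes at that limit is not given. The share of all genes called is likewise not given for DESeq2 or with samples left out. In the same cells Mki67 was lower in sgArid1a, at 587 and 909 against 514 and 431 CPM (-0.60 ± 0.13, edgeR adjusted p = 0.00309), and its interaction with resting cells was -1.48 ± 0.17. The part of Mki67 and of what it marks in the histone values was not tested.

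**Figure D4:**
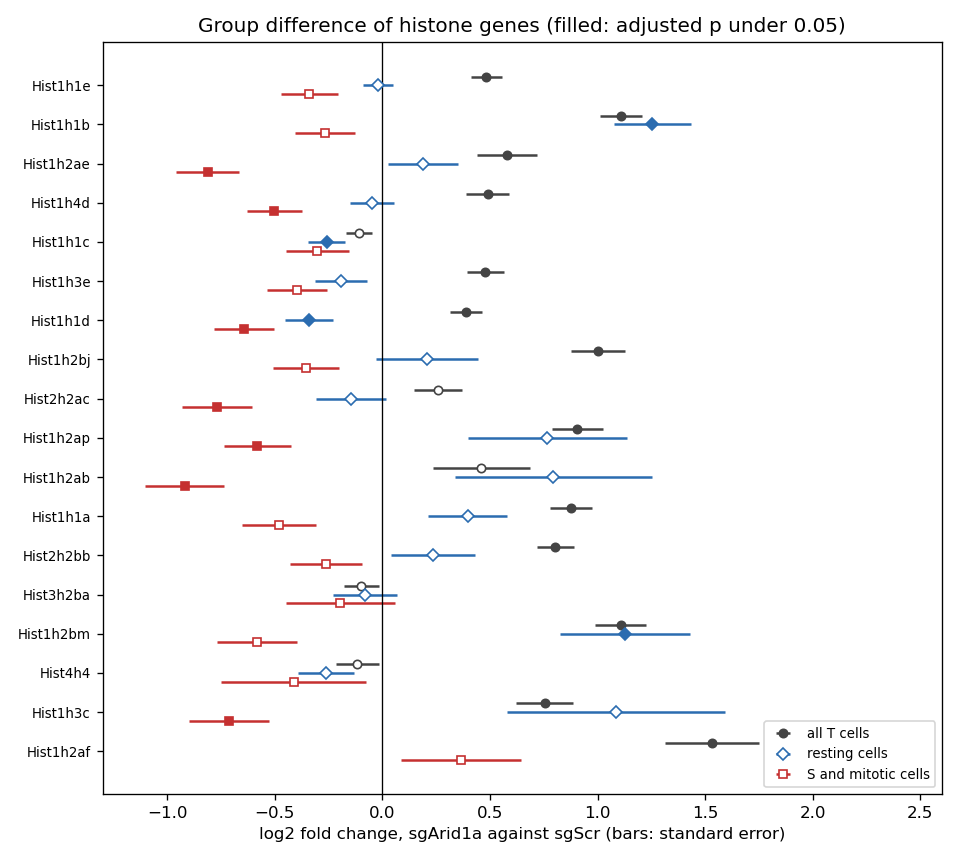
Log2 fold change of sgArid1a against sgScr (horizontal axis, bars are standard errors) for named histone genes with at least 1000 UMIs, over all T cells, in resting cells and in S and mitotic cells; filled markers have an edgeR adjusted p under 0.05, and a missing marker was not tested. Most genes lie above 0 over all T cells and below 0 in S and mitotic cells. In resting cells genes lie on both sides of 0, with Hist1h1b and Hist1h2bm called higher and Hist1h1c and Hist1h1d called lower.

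The difference between group effects was tested with an interaction term. For S phase minus resting cells 1 of 48 members was called by edgeR, Hist1h1b at -1.20 ± 0.20 (adjusted p = 0.000428), which DESeq2 did not call (adjusted p = 0.370), where 2.15% of all genes were called in that direction and 0.348% in the other. For S and mitotic minus resting cells, also added later, 7 of 53 members were called and all were negative (1.4% of all genes in that direction, 0.258% in the other), with Hist1h1b at -1.57 ± 0.18 (adjusted p = 4.5e-06). Leaving out single samples gave 1 to 4 calls in the first, with 4 without sgScr replicate 2, 3 without sgArid1a replicate 1 and 2 without sgArid1a replicate 2, and 4 to 10 in the second, with 4 without either sgArid1a sample and 10 without sgScr replicate 1. The group difference of Hist1h1b was 1.25 in resting cells, 0.09 in S phase cells (edgeR adjusted p = 0.769) and -0.27 in S and mitotic cells (edgeR adjusted p = 0.328).

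When levels per bin of both lists were weighted by a single mix of bins for all samples, an alternative added after the data had been seen, the summed histone level was 1127 and 1217 CPM in sgScr and 1081 and 929 CPM in sgArid1a. The ratio of group means was 0.857, in place of 1.49 with each sample's own mix over the same cells. The 35 bins used held at least 99.99% of the UMIs of every sample.

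Over all T cells, 7 of 17 processing genes were higher in sgArid1a and none lower, 10 of 19 chaperones higher and 4 lower (Cabin1, Nap1l4, Supt6 and Ubn1), and 7 of 10 variants higher and none lower, where 28% of all genes were called higher and 26.5% lower. Slbp was at 93.9 and 95.8 against 126 and 138 CPM (log2 0.51 ± 0.06, edgeR adjusted p = 5.11e-06) and H2afz, for a variant of H2A, at 733 and 762 against 1214 and 1221 CPM (0.73 ± 0.07). Asf1b (0.99 ± 0.07), Cenpa (1.09 ± 0.06) and Chaf1a (0.98 ± 0.08) were higher as well, while Npat was not called (-0.02 ± 0.09, edgeR adjusted p = 0.888). Within S phase cells no processing gene and no chaperone was called among 15 and 19 tested, and 2 of 10 variants were called higher, H2afz (0.34 ± 0.10, edgeR adjusted p = 0.0415) and Cenpa (0.54 ± 0.12, edgeR adjusted p = 0.00164).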

How the data were processed

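Single-cell 5-prime RNA libraries of 4 samples were used. The deposited matrices hold UMI counts per gene and cell, which the authors made with Cell Ranger 6.0.1 per the file headers. Cell Ranger 3.0.2, Seurat and mm10 are named per the submitters' processing notes. The annotation release and filters are not given in the sources used here.

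Cells with at least 500 genes, at most 10% mitochondrial UMIs, a T cell receptor or CD3 UMI and fewer than 4 UMIs of B cell, plasma cell, dendritic cell and macrophage genes were kept. No doublet caller was run, and cells with 2 or more UMIs of at least 2 Trbv segments were removed in an alternative. Counts were summed per sample and class and tested with edgeR 4.0.16 (quasi-likelihood, TMM, filterByExpr, Benjamini-Hochberg over all genes, threshold 0.05) in R 4.3.3. The sample was a block in comparisons of classes. CPM are UMIs per 1000000 UMIs of the same cells. The test was tested on simulated data first. DESeq2 1.42.0, other size factors, no count filter, other class limits, thinned cells, all barcodes and each sample left out were the alternatives.

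The members and lists were chosen with earlier results of these data known. Genes named are the 12 highest in S phase and 5 highest in resting cells, all linker genes, the 3 largest rises and falls of a comparison, fixed reference genes, and the 3 list genes with the smallest p. Comparisons of S and mitotic cells were added after the data were seen. Genes were placed with GENCODE M21 (GRCm38), and promoters came from RefSeq (GRCm38.p6).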

Additional observations from a re-analysis of the deposited data

Results flagged for a closer look

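For 8 values the difference between groups was itself different between classes of cells, by an interaction term in edgeR with adjustment over all genes. Between S phase and resting cells, the linker gene Hist1h1b differed by -1.20 on the log2 scale (sgArid1a over sgScr in S phase cells minus the same in resting cells, edgeR adjusted p = 0.000428), a call lost with DESeq2 (adjusted p = 0.370).

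Between S and mitotic and resting cells, Hist1h1b differed by -1.57 (edgeR adjusted p = 4.5e-06). The H2A genes Hist1h2ab, Hist1h2ap and Hist1h2ae differed by -1.79, -1.29 and -1.05, with edgeR adjusted p of 0.00143, 0.0433 and 0.000608. The H2B gene Hist1h2bm differed by -1.72 (edgeR adjusted p = 0.00348), the H3 gene Hist1h3c by -1.80 (edgeR adjusted p = 0.044) and the H4 gene Hist1h4d by -0.45 (edgeR adjusted p = 0.0383). The calls of Hist1h2ab and Hist1h1b held under every alternative run, and each of the other 5 was lost under at least 1, with the highest edgeR or DESeq2 adjusted p at 0.107 for Hist1h2ae, 0.177 for Hist1h2bm, 0.410 for Hist1h2ap, 0.913 for Hist1h4d and 0.999 for Hist1h3c. In resting cells Hist1h3c, Hist1h2ab and Hist1h2bm had mean levels of 1.43, 2.40 and 1.88 CPM, so that few UMIs stand behind their resting values.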

How the results depend on the processing

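Of 1646 values of named genes under the alternatives, 1529 kept their direction and side of the threshold, 116 lost the call and 1 changed sign: Hist1h1b between S phase and mitotic cells, at 0.0090 without sgArid1a replicate 2, over a range of -0.41 to 0.0090 with single samples left out. The cause of the changes below was not tested. For none of the alternatives, here or in the sections above, is the share of all genes called given. Whether the members' counts change with that share is therefore not shown. Over all T cells, 17 members were called higher on thinned cells, and 27 to 32 with single samples left out. In S phase cells, calls of lower members were 0 with DESeq2, without two-segment cells, on thinned cells, with a class limit of 3 UMIs and classed at 1000 UMIs, 4 with a limit of 6, and 0 to 4 with samples left out, and calls of higher members were 2 with a limit of 3 and 0 to 1 with samples left out. In mitotic cells there was 1 higher without the count filter, 1 lower with a limit of 6 and 2 lower classed at 1000 UMIs, and 0 to 1 in each direction with samples left out. In resting cells the higher calls were 1 with DESeq2 and on thinned cells, 4 without the filter and classed at 1000 UMIs, and 1 to 5 with samples left out. The lower calls there were 0 with DESeq2, 1 without two-segment cells, on thinned cells and classed at 1000 UMIs, and 0 to 3 with samples left out. In S and mitotic cells the lower calls were 0 with DESeq2, on thinned cells, with a limit of 6 and classed at 1000 UMIs, 3 without two-segment cells, and 0 to 15 with samples left out. An arm left with 1 sample is assumed to vary like the other group.

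Against resting cells, samples left out gave 30 to 36 higher and 3 to 3 lower in S phase, 30 to 37 higher in mitotic and 44 to 48 higher in S and mitotic cells, and 36 to 41 higher in S and mitotic against S phase cells. S phase against mitotic cells gave 17 lower with DESeq2 and without two-segment cells, and 16 to 29 lower and 1 to 1 higher with samples left out. The interaction for S phase cells gave 0 with DESeq2, 4 without the filter and classed at 1000 UMIs, 2 without two-segment cells, 5 with a limit of 6 and 1 to 4 with samples left out. That for S and mitotic cells gave 4 with DESeq2, 3 with a limit of 6 and 4 to 10 with samples left out.

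Without thinning, the group differences in shares were -0.87 percentage points for S phase and 3.65 for resting cells. With samples left out they were 3.46 to 3.59 for S phase, 1.53 to 1.81 for S and mitotic, 0.794 to 1.09 for mitotic and -7.93 to -6.30 for resting cells. The S phase level was 1088 CPM on thinned cells, 1842 and 1109 with limits of 6 and 3, and 2029 classed at 1000 UMIs, the mitotic level 1965 without two-segment cells, 1922 thinned, 2465 with a limit of 6 and 2971 classed at 1000 UMIs, and the resting level 382 thinned and 358 classed at 1000 UMIs. With samples left out the levels were 1346 to 1464, 4407 to 5479 (S and mitotic), 2156 to 2257 and 338 to 346 CPM. With the common mix of bins the group ratio was 0.857.

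Deviations from the group means had a correlation of -0.05 over 12763 genes between samples of the same replicate number. With 2 samples per group both pairs give the same value, so it cannot decide whether the numbers pair the samples. With the replicate number as a block, 4 members were called higher in resting cells, and 34 over all T cells. Without the sample block the class comparisons kept their number of calls within 1.5 times (31 higher in S phase against resting cells).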
